A study of Mus musculus with 5 samples.

Results

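The Siglecs are cell-surface lectins of the immunoglobulin superfamily that bind sialic acid, the sugar that caps many glycans of mammalian cells. Transcripts of 6 Siglec genes of the mouse, Siglec1, Siglece, Siglecf, Siglecg, Siglech and Cd33, were followed in RNA of sorted thymic dendritic cells. They were chosen by symbol, and all 6 were found among the 18051 genes of the count table. The cells came from thymi that were pooled and digested, taken from C57BL/6J mice of 6 to 8 weeks of age, and the sort kept those with CD45, CD11c and MHC class II at the surface. The groups were 3 libraries from total body irradiation (TBI), made 4 days after it, and 2 libraries of untreated mice. Neither group carried an engineered allele according to the labels, and the radiation dose and the sex of the mice were not given in the sources used here. The labels do not give a separate pool for each replicate, so p-values measure the spread between these libraries, which may be technical.

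Most Siglecs carry tyrosine motifs of the inhibitory kind (ITIMs) in their tails and recruit the phosphatases SHP-1 and SHP-2, which dampens activation of the cell. A few lack such motifs and pair instead with small adaptors such as DAP12 (Tyrobp), which carry activating motifs (ITAMs). In the mouse, Siglec1 (CD169, sialoadhesin) is a macrophage adhesion receptor, Siglech is a receptor of plasmacytoid dendritic cells that pairs with DAP12, Siglecg is an inhibitory receptor of B cells, Siglecf is known from eosinophils and alveolar macrophages, and Siglece and Cd33 are receptors of myeloid cells.

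In GRCm38 (mm10), Siglecf (chr7:43351341-43359531, plus strand), Siglecg (chr7:43408204-43418358, plus), Cd33 (chr7:43524216-43544428, minus) and Siglece (chr7:43651070-43660161, minus) lie within 308.8 kb of chromosome 7. Siglech (chr7:55768178-55778925, plus) lies 12.11 Mb farther along the same chromosome, and Siglec1 (chr2:131069220-131086765, minus) lies on chromosome 2. No other annotated gene overlaps any of the 6 gene bodies in GENCODE M21, and the share of a gene's 50-base words that also occur in transcripts of another gene ran from 0% for Siglece to 4.64% for Siglecg, so sharing of reads between copies is small by this measure.

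RefSeq promoter sequences (GRCm38.p6, 250 bases before to 50 bases after the start) were matched for 5 of the 6 genes, all but Siglec1. The promoters of Siglech, the gene that fell, and of Siglece, a gene that rose, are shown with capitals on matches, on either strand, to the E-box CANNTG bound by helix-loop-helix factors such as TCF4 and to the ETS-type motif GAGGAAG.
Siglech, chr7:55767934-55768233, plus strand: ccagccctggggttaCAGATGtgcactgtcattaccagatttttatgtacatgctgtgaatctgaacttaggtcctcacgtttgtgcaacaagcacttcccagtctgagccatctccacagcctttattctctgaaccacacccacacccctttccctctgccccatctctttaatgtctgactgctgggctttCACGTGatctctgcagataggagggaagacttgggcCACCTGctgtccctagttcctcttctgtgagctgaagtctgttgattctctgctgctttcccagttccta
Siglece, chr7:43660112-43660411, minus strand: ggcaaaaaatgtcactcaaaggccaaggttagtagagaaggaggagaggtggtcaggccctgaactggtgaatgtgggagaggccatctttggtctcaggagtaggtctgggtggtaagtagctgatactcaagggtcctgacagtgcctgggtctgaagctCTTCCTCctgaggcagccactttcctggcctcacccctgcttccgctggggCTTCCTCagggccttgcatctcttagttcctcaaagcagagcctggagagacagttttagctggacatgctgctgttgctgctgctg
The Siglech window held 3 E-boxes and no ETS-type match, and the Siglece window held no E-box and 2 ETS-type matches. Among the genes that did not pass the test, Siglecf held 6 E-boxes and 1 ETS-type match, and Cd33 held 2 and 1. The first Siglecg window held no E-box and 1 ETS-type match, and the second held 1 E-box and no ETS-type match. Of 32851 promoter windows of this length, 72.3% held an E-box and 13.6% the ETS-type motif. The E-box nearest the Siglech start has the letters CACCTG, the reverse complement of CAGGTG, which 20.2% of the windows held.

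Siglecf and Cd33 lie in the same stretch of chromosome 7, with Siglecg and other genes between them, and neither passed the test. Their promoters are shown with capitals on the exact runs of at least 12 bases that both hold.
Siglecf, chr7:43351091-43351390, plus strand: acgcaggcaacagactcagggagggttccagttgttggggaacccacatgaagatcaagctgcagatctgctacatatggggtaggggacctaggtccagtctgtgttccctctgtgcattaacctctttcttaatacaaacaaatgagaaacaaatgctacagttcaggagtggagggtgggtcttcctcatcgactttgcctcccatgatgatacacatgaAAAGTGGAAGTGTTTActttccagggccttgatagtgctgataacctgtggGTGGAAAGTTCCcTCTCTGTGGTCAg
Cd33, chr7:43533122-43533421, minus strand: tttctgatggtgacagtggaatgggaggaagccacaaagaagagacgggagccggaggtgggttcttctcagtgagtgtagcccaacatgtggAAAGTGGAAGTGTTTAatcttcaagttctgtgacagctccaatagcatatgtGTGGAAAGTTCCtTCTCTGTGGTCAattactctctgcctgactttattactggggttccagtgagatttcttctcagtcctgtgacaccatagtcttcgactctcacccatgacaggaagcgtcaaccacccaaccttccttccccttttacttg
The Cd33 start in RefSeq lies inside the longer gene body of GENCODE. These windows shared 3 such runs, the longest of 16 bases. In each of the other 9 pairs among the 5 promoters the longest shared run had 8 to 10 bases.

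Total counts ran from 7549053 to 8428589 in the TBI libraries and from 7227000 to 7346330 in the untreated libraries, where 1 count equals 0.123 to 0.145 CPM (counts scaled to the library total, adjusted by TMM factors). Counts of a pair of libraries differed by a chi-square per gene of 9.80 to 27.6 within the TBI group and 4.89 within the untreated group, against 115 to 129 between groups, where 1 would be pure counting error, and TBI replicate 1 was the farthest from the others in its group. Genes of the sort gate were plentiful in every library, although the MHC class II genes H2-Aa and H2-Ab1 and the CD11c gene Itgax were lower after TBI (log2 fold changes of -0.47, -0.60 and -0.62) and the CD45 gene Ptprc was not called (-0.13 ± 0.11, adjusted p = 0.462). Those 3 calls were lost without untreated replicate 1, untreated replicate 2 or TBI replicate 2. Of 20 macrophage markers 17 were higher and the other 3 were not called, and of 14 plasmacytoid markers 12 were lower and the other 2 were not called. In libraries of bulk RNA, fewer cells of a type and less RNA per cell cannot be told apart, and this holds for every difference given here.

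The Siglec transcripts of thymic dendritic cells changed in make-up after TBI. Siglech fell, Siglec1 and Siglece rose, and Siglecf, Siglecg and Cd33 did not pass the test (edgeR quasi-likelihood, Benjamini-Hochberg adjusted p under 0.05 over 12046 genes). Thus 2 of the 6 genes were higher and 1 was lower, where 13.3% of all tested genes were higher and 9.79% lower, 23.1% in either direction. In 5 of the 6 genes the libraries of the 2 groups did not overlap in CPM, as was the case for 56.1% of all tested genes. All 6 genes passed the filter on low counts.

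**Figure D1:**
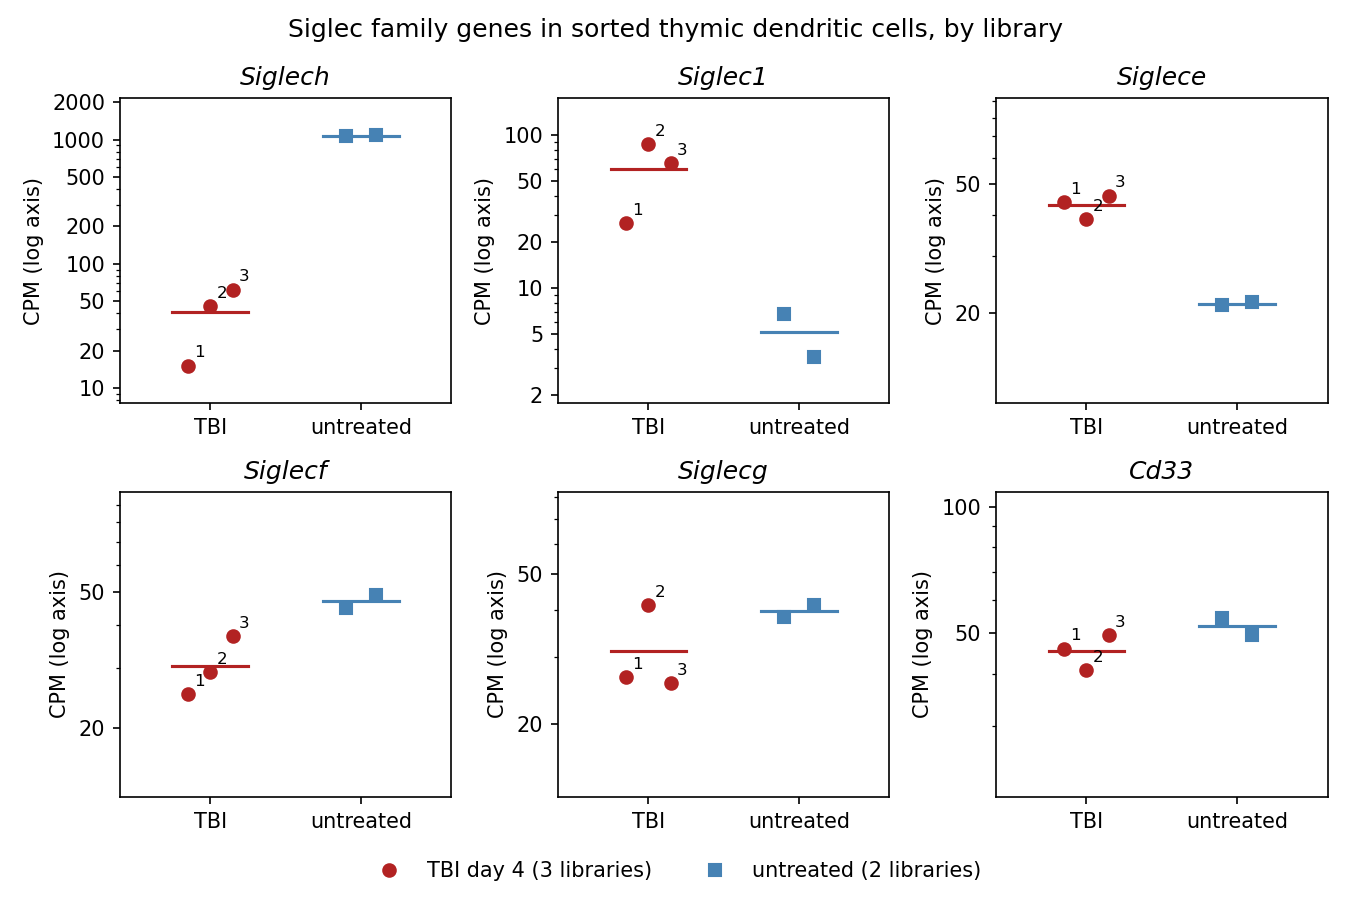
CPM of the 6 Siglec genes in each library on a log axis, with TBI libraries as numbered red circles, untreated libraries as blue squares and group means as lines. Siglech lies between 15.2 and 62.0 CPM in TBI libraries and near 1075 CPM in untreated ones, while Siglecg is the gene whose groups overlap.

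Siglech, which couples to DAP12 and restrains interferon release by plasmacytoid dendritic cells, was the family member with the largest fall. It had 105, 359 and 475 counts in the TBI libraries against 8693 and 8528 counts in the untreated libraries, or 15.2, 45.4 and 62.0 CPM against 1073 and 1078 CPM. Every TBI library lay far below both untreated libraries, and TBI replicate 1 was the lowest. Siglech averaged 40.9 ± 23.8 CPM after TBI and 1075 ± 3.81 CPM in untreated cells (SD, n = 3 and n = 2), 26.2-fold lower, or -4.71 ± 0.46 as log2 (SE, edgeR adjusted p = 1.81e-04). By CPM it ranked 65 of 12046 tested genes in untreated cells and 4644 after TBI.

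The fall of Siglech came with a fall of other plasmacytoid markers. Their summed level was 499 to 665 CPM in TBI libraries and 2711 to 2803 CPM in untreated libraries, with no defining marker at 0. Klk1 (-6.56 ± 0.22), Atp2a1 (-5.15 ± 0.30) and Pacsin1 (-2.60 ± 0.19) had the smallest p among them, and the median log2 fold change of the 14 markers was -3.22, against -0.01 over all tested genes. Of these markers 3 fell further than Siglech. Siglech amounted to 2.73%, 6.83% and 12.4% of the summed markers in TBI replicates 1, 2 and 3, against 38.3% and 39.8% in untreated replicates 1 and 2. Within the TBI group Siglech was lowest in replicate 1, as were 9 of the 14 markers. It was highest in replicate 3, as were 3 of the markers, while 9 were highest in replicate 2. What part the share of plasmacytoid cells has in the change of Siglech was not tested.

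Siglec1, the receptor of macrophages that captures sialylated cells, vesicles and viruses, had the largest rise of the 6. It had 184, 688 and 502 counts in TBI libraries against 55 and 28 counts in untreated libraries, or 26.6, 87.1 and 65.6 CPM against 6.79 and 3.54 CPM. The groups did not overlap, but both were wide: the highest TBI library was 3.28 times the lowest, and the higher untreated library 1.92 times the other. The log2 fold change was 3.53 ± 0.55 (SE, edgeR adjusted p = 0.00224), an 11.5-fold higher level after TBI. It ran from 3.14 to 4.07 as each library was left out and stayed past the threshold each time.

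Macrophage markers rose in the same libraries. Lyve1, a hyaluronan receptor (7.94 ± 0.29), the lipopolysaccharide co-receptor Cd14 (4.10 ± 0.19) and the lipid carrier Apoe (3.15 ± 0.15) had the smallest p, and the summed level of the 20 markers was 25405 to 27726 CPM after TBI and 3529 to 4209 CPM in untreated cells, with none of them at 0 throughout. Siglec1 amounted to 0.105%, 0.316% and 0.236% of that sum in TBI libraries and 0.161% and 0.100% in untreated libraries, and these ranges overlapped. The part of macrophage content in the change of Siglec1 was not tested.

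Siglec1 is also an interferon-induced gene, so 16 interferon-stimulated genes were counted. Of these 5 were higher and 4 lower, with a median log2 fold change of 0.05. Those with the smallest p were Ifi44 (-1.36 ± 0.18), the antiviral enzyme gene Rsad2 (1.58 ± 0.23) and Ifit1 (1.72 ± 0.27). The lower ones numbered 1 without untreated replicate 1, and the higher ones 3 without untreated replicate 2. The genes thus moved both ways, and their summed level was 1102 to 1363 CPM after TBI against 1422 to 1550 CPM in untreated cells.

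Siglece, an inhibitory receptor of mouse neutrophils, monocytes and macrophages, rose by about the same amount in every TBI library. It had 304, 307 and 352 counts after TBI against 171 and 171 counts in untreated cells, or 43.9, 38.9 and 46.0 CPM against 21.1 and 21.6 CPM. The TBI libraries all lay above the untreated ones and differed among themselves by at most 1.18 times. The log2 fold change was 1.01 ± 0.19 (SE, edgeR adjusted p = 0.00610), 2.01-fold higher. Without untreated replicate 1 or untreated replicate 2 the log2 fold change was 0.99 and 1.02, but the edgeR adjusted p was 0.0952 and 0.0886.

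**Figure D2:**
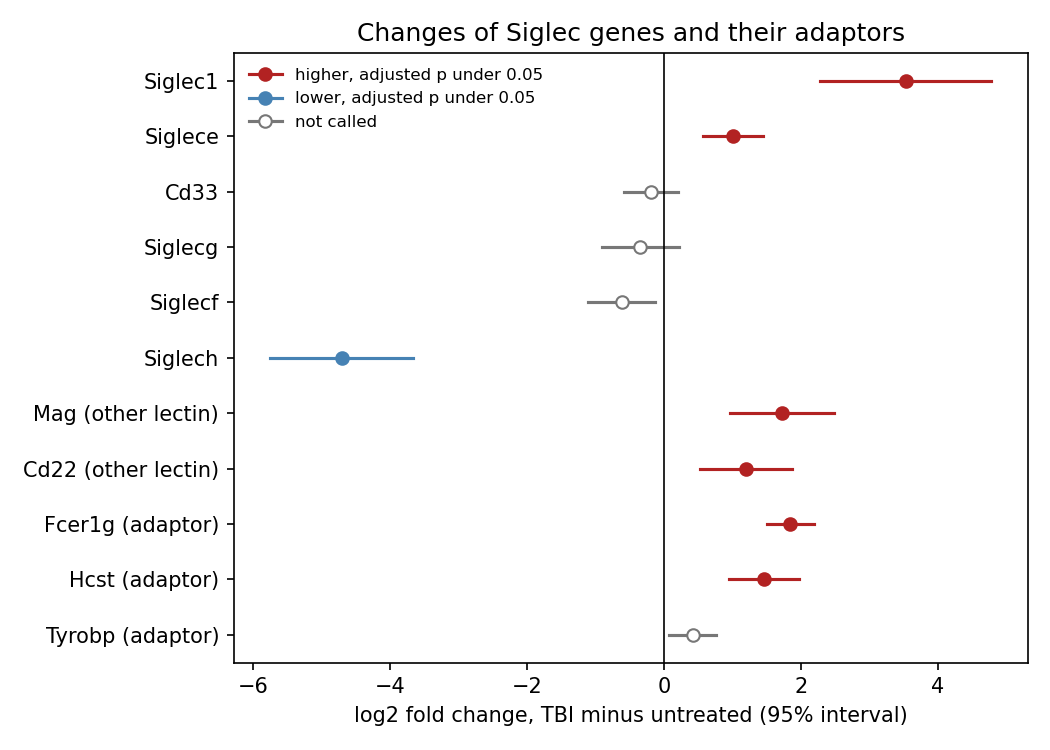
Log2 fold change of TBI over untreated with its 95% interval for the 6 Siglec genes and the other family lectins Mag and Cd22. The signalling adaptors Fcer1g, Hcst and Tyrobp are also shown. Siglec1 at 3.53 and Siglech at -4.71 stand at either end, and the open points of Cd33, Siglecg and Siglecf are not called.

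Siglecf, the inhibitory receptor by which mouse eosinophils are usually recognised, had 174, 230 and 284 counts after TBI against 363 and 388 counts in untreated cells. This was 25.1, 29.1 and 37.1 CPM against 44.8 and 49.1 CPM, so every TBI library was below both untreated ones. The difference of -0.62 ± 0.21 (log2, SE) did not pass the threshold by edgeR (adjusted p = 0.0689), and its unadjusted 95% interval ran from -1.11 to -0.14. The gene did pass with upper quartile scaling (adjusted p = 0.0498), library size alone (0.0256), the DESeq2 Wald test (0.0490), removal of the length trend (0.0461) and without TBI replicate 3 (0.0345), so its call depends on the processing.

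Eosinophil markers moved both ways, with 2 higher (Alox15 at 2.08 ± 0.13 and the ribonuclease gene Ear2 at 3.10 ± 0.35) and 2 lower (Prg3 and the eotaxin receptor Ccr3, -1.21 ± 0.28) of 7 tested. Prg3 had only 0, 2 and 1 counts after TBI against 15 and 19 counts in untreated cells. The lower markers numbered 1 with a stricter filter on low counts and 3 with library size alone. Neither Prg3 nor Ccr3 was called without untreated replicate 1 or untreated replicate 2, and 1 marker was lower without TBI replicate 3. The defining eosinophil peroxidase gene Epx had 3, 0 and 0 counts after TBI and 4 and 4 in untreated cells. The summed list, 1351 to 1654 CPM after TBI and 417 to 448 CPM in untreated cells, was carried by Alox15, which resident macrophages of body cavities also express.

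Siglecg, which restrains B-cell receptor signalling and binds CD24, had 184, 326 and 196 counts after TBI against 311 and 326 counts in untreated cells. In CPM these were 26.6, 41.3 and 25.6 against 38.4 and 41.2. TBI replicates 1 and 3 lay below both untreated libraries and TBI replicate 2 lay above them, so the groups overlapped. The log2 fold change was -0.35 ± 0.25 (SE, edgeR adjusted p = 0.345), with a 95% interval of -0.91 to 0.21.

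Of 10 tested B-cell markers 6 were higher, led by Cd79a (2.44 ± 0.29) and Ms4a1 (2.39 ± 0.30), and 2 were lower, among them Fcrla (-2.53 ± 0.31). The lower ones numbered 1 without untreated replicate 1, untreated replicate 2 or TBI replicate 2. Siglecg amounted to 5.29%, 7.58% and 7.35% of the summed B-cell markers in TBI libraries, against 15.8% and 17.8% in untreated libraries. Cd22, the other inhibitory Siglec of B cells, had 161, 301 and 338 counts after TBI against 125 and 121 counts in untreated cells. Siglecg counts were therefore 1.14, 1.08 and 0.580 times those of Cd22 after TBI, against 2.49 and 2.69 times in untreated cells. The groups did not overlap in this ratio, which no scaling between libraries can alter.

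Cd33, a myeloid receptor whose human form is the antigen CD33, had the smallest log2 fold change of the 6 in size, though Siglecg had a smaller one without TBI replicate 3 (-0.22 against -0.25 for Cd33). It had 318, 322 and 379 counts after TBI against 440 and 392 counts in untreated cells, or 46.0, 40.8 and 49.5 CPM against 54.3 and 49.6 CPM. The highest TBI library all but touched the lower untreated library. The log2 fold change was -0.19 ± 0.17 (SE, edgeR adjusted p = 0.467), with an unadjusted 95% interval of -0.59 to 0.20.

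**Figure D3:**
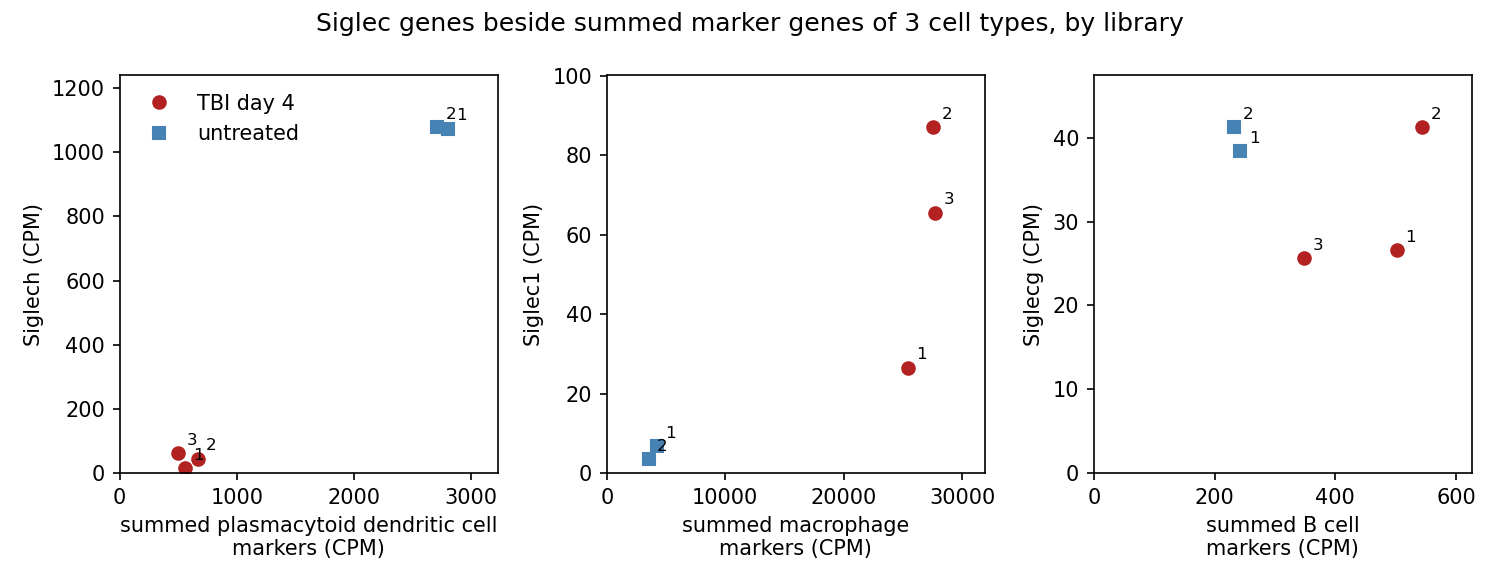
CPM of Siglech, Siglec1 and Siglecg in each library against the summed CPM of plasmacytoid dendritic cell, macrophage and B-cell markers, with libraries numbered, TBI in red and untreated in blue. Siglech and its markers are both low after TBI, Siglec1 and its markers are both high, and Siglecg is not raised where the B-cell markers are.

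Genes differ in length, so levels of different Siglecs were compared as CPM per kilobase of exon. In TBI libraries the order was Siglece (23.2 ± 1.98), Siglech (12.1 ± 7.02), Siglecf (10.9 ± 2.18), Siglec1 (8.37 ± 4.29), Siglecg (6.48 ± 1.83) and Cd33 (5.84 ± 0.57 CPM per kb, SD, n = 3). By this length Siglece stood above the rest in every TBI library, whereas the libraries of each of the 5 others overlapped with those of its neighbour in this order. In untreated libraries the order was Siglech (318 ± 1.13), Siglecf (16.8 ± 1.08), Siglece (11.6 ± 0.20), Siglecg (8.28 ± 0.42), Cd33 (6.68 ± 0.43) and Siglec1 (0.72 ± 0.32 CPM per kb, SD, n = 2), with no overlap between neighbours. Siglece thus stood first after TBI and Siglech first in untreated cells. With the length of the longest transcript in place of all exons, Siglech was above Siglece in TBI replicate 3, at 29.5% against 27.2% of the family sum.

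The 6 genes together had 52.4, 70.9 and 77.4 CPM per kb after TBI, against 360.5 and 363 CPM per kb in untreated cells. Without Siglech the sum was 47.9, 57.5 and 59.0 CPM per kb after TBI and 43.4 and 44.7 CPM per kb in untreated cells, higher in every TBI library. With library size alone as the scaling this sum was 43.9, 53.9 and 56.9 CPM per kb after TBI and 47.9 and 48.9 CPM per kb in untreated cells, and the groups overlapped. Siglech made up 8.56%, 18.9% and 23.7% of the family sum after TBI, against 88.0% and 87.7% in untreated cells. Siglece made up 45.3%, 29.6% and 32.1% after TBI, against 3.17% and 3.22%. Siglec1 made up 7.10%, 17.2% and 11.9% after TBI, against 0.264% and 0.136%.

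**Figure D4:**
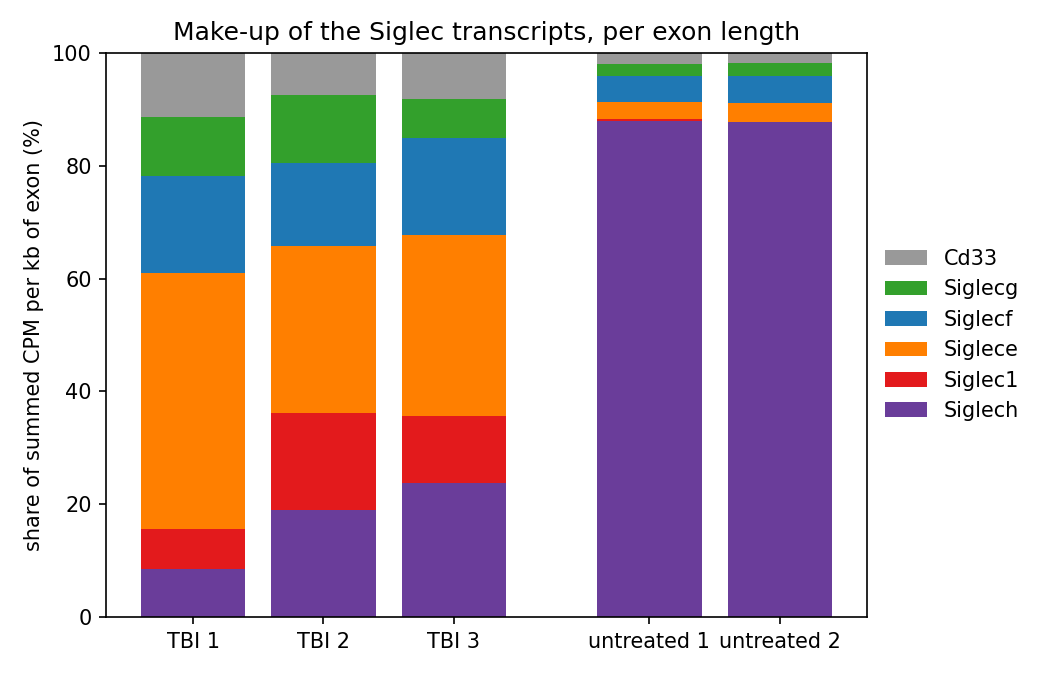
Share of each Siglec gene in the summed CPM per kilobase of exon of the 6 genes, one bar per library, with TBI libraries on the left. Siglech fills about 88% of the untreated bars and 8.56% to 23.7% of the TBI bars, where Siglece holds the largest share.

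Ratios of counts within a library do not depend on scaling between libraries, but a trend with exon length can still move them. The exon lengths were 1.85 kb for Siglece, 2.79 kb for Siglecf, 7.77 kb for Cd33, 7.14 kb for Siglec1 and 3.38 kb for Siglech. Siglece had 1.75, 1.33 and 1.24 counts for each count of Siglecf after TBI, against 0.471 and 0.441 in untreated cells. Siglece also had 0.956, 0.953 and 0.929 counts for each count of Cd33 after TBI, against 0.389 and 0.436. Siglec1 had 1.75, 1.92 and 1.06 counts for each count of Siglech after TBI, against 0.00633 and 0.00328. In all 3 ratios every TBI library lay above both untreated libraries, and with 3 libraries against 2 an exact two-sided permutation test cannot give a p below 0.2.

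The log2 fold change varied with the annotated exon length of the gene. Tested genes with 86 to 2788 bases of exon had a median log2 fold change of 0.22 and those with 6760 bases or more of -0.21, and the medians of TBI replicate 1 over the other TBI libraries were 0.26 and -0.25 in the same classes. Siglece, with 1.85 kb of exon, is in the short class, and Siglec1 (7.14 kb) and Cd33 (7.77 kb) are in the long class. With the length trend removed the log2 fold changes were 0.81 for Siglece (edgeR adjusted p = 0.0157), 3.66 for Siglec1 (0.00124) and -0.01 for Cd33 (0.981).

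The genes nearest to each Siglec in pattern were those with the smallest root mean square difference in centred log2 CPM over the 5 libraries, among 7308 genes. For Siglech they were Lrp8 (0.47), the langerin gene Cd207 (0.56) and the chemokine receptor gene Ccr9 (0.61). For Siglec1 they were Xdh (0.35), Gpnmb (0.37) and the scavenger receptor gene Cd163 (0.38). For Siglece they were Atf3 (0.02), Rgs1 (0.06) and Ctsa (0.06), for Siglecf Vcpip1, Chpt1 and Wdr24 (0.02 to 0.05), for Siglecg Tnfaip1, Dnajb2 and Ube2j1 (0.05 to 0.06), and for Cd33 Sepsecs, Brd3 and Arl4c (0.03 to 0.04). The nearest genes of Siglech and Siglec1 were farther off than those of the other 4. Few genes changed as much, since Siglech ranked 48 of 12046 tested genes by fall and Siglec1 295 by rise. The larger distance therefore cannot be read apart from the size of their changes.

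Neighbours on the chromosome moved both ways. Within the interval of chromosome 7 that holds Siglecf, Siglecg, Cd33 and Siglece, 12 other coding genes are annotated and 5 were tested. These were chosen after their values were seen: Nkg7, a granule protein gene of cytotoxic lymphocytes (4.54), and Vsig10l (1.66) were higher, Zfp658 (-2.43) and Zfp719 (-0.92) were lower, and Etfb (0.57) was not called.

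Of the lectins of the family outside the chosen 6, both that could be tested rose. Mag, the myelin-associated glycoprotein (Siglec-4), had 104, 99 and 98 counts after TBI against 41 and 24 counts in untreated cells (log2 fold change 1.73 ± 0.33, edgeR adjusted p = 0.00649), and Cd22 had a log2 fold change of 1.20 ± 0.29 (adjusted p = 0.0207). Siglec15 had 0, 1 and 0 counts after TBI and 0 and 0 in untreated cells. The number called was 1 without untreated replicate 1, TBI replicate 2 or TBI replicate 3, and 0 without untreated replicate 2.

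None of the 3 signalling adaptors listed was lower after TBI. Tyrobp, which encodes its partner DAP12, had 10124, 8954 and 8346 counts after TBI against 7407 and 7305 counts in untreated cells (log2 fold change 0.42 ± 0.15, edgeR adjusted p = 0.0807). Hcst, which encodes DAP10 (1.45 ± 0.22), and Fcer1g, the Fc receptor gamma chain (1.84 ± 0.15), were both higher. Siglech and Tyrobp therefore had log2 fold changes of opposite sign.

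Of 12 kinases, phosphatases and other signalling genes that act below ITIMs and ITAMs, 4 were lower and the other 8 were not called. Their median log2 fold change was -0.28. Among the lower ones were the ubiquitin ligase gene Cbl (-0.99 ± 0.24), Ptpn6, which encodes SHP-1 (-0.42 ± 0.11), and the inositol phosphatase gene Inpp5d (-1.03 ± 0.31). Ptpn11, which encodes SHP-2, was not called (0.41 ± 0.18, edgeR adjusted p = 0.142). The lower ones numbered 1 without untreated replicate 1, untreated replicate 2 or TBI replicate 2, and 1 gene was higher without TBI replicate 1.

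Genes that make and remove the sialic acid ligand moved both ways. Gne, the rate-limiting enzyme of sialic acid synthesis, had 172, 133 and 180 counts after TBI against 456 and 419 counts in untreated cells and fell by 1.33 ± 0.21 on the log2 scale. Npl, which breaks sialic acid down (1.69 ± 0.24), and Renbp (1.02 ± 0.17) rose, and 4 of the 7 tested genes of this list were not called. Of 14 tested sialyltransferases 5 were higher and 3 lower, with a median of 0.34. St3gal4 (0.83 ± 0.13) and St8sia6 (1.51 ± 0.23) rose, and St8sia4, which builds polysialic acid, fell (-1.77 ± 0.24). St6gal1, which makes the ligand preferred by Cd22, had 382, 651 and 655 counts after TBI against 999 and 978 counts in untreated cells and fell (-0.73 ± 0.20, edgeR adjusted p = 0.0306). It was chosen after its values were seen. Among the enzymes that remove or trim sialic acid, the lysosomal sialidase gene Neu1 rose (0.94 ± 0.20). The sialidase gene Neu3 (-2.13 ± 0.70, edgeR adjusted p = 0.0607) and the esterase gene Siae (0.48 ± 0.19, adjusted p = 0.108) were not called. Neu3 had 15, 2 and 20 counts after TBI against 63 and 55 counts in untreated cells. Fewer sialyltransferases, fewer genes of the list that holds Gne, Npl and Renbp, and fewer sialidases were called higher when either untreated library was left out. Without TBI replicate 1, 3 genes of the list that holds Gne were lower. In the sialidase list 1 gene was lower without TBI replicate 1 or TBI replicate 2, with library size alone, by DESeq2 and by limma-voom.

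**Figure D5:**
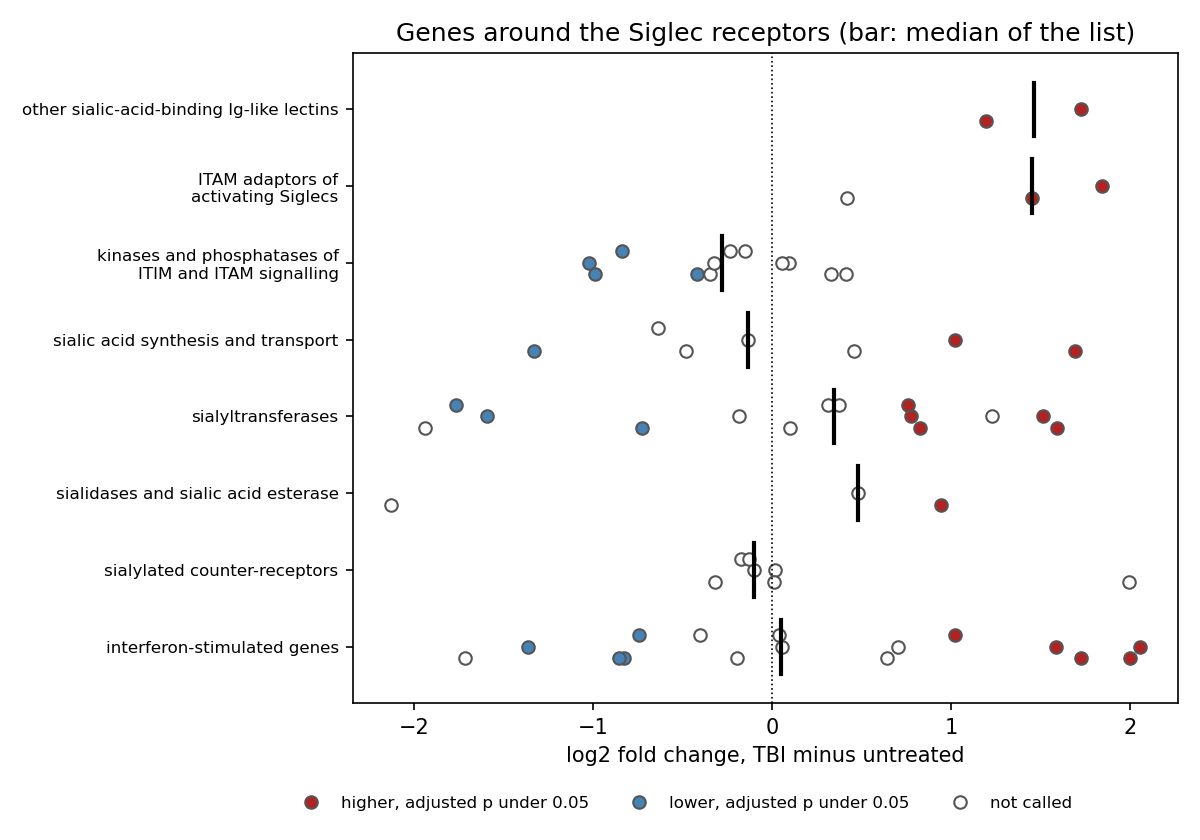
Log2 fold change of TBI over untreated for each tested gene of 8 lists around the Siglec receptors, with filled points past the threshold and a bar at the median of the list. Adaptors and the other lectins lie to the right, and kinases, phosphatases and other signalling genes mostly left of 0. Sialic acid enzymes lie on both sides.

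Of 7 proteins that carry sialic acid and can serve as ligands of Siglecs, 0 were called by edgeR, 1 at an unadjusted p under 0.05, whereas DESeq2 called 1 higher and edgeR with library size alone called 2 lower. Selplg, the selectin ligand PSGL-1 (-0.17 ± 0.11), and Ptprc were the most abundant. The gene of the Siglecg ligand CD24, Cd24a, had 2565, 2773 and 2131 counts after TBI against 2652 and 2624 counts in untreated cells (log2 fold change 0.02 ± 0.15, edgeR adjusted p = 0.951).

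The remaining marker lists gave these counts. Of 12 conventional dendritic cell markers 3 were higher and 6 lower. Flt3 (-3.15 ± 0.15), Xcr1 (-2.84 ± 0.14) and Irf8 (-2.01 ± 0.14), all lower, had the smallest p. The higher ones were Mgl2 (2.10 ± 0.22), Clec10a (1.19 ± 0.19) and Cd209a (0.97 ± 0.19). Monocytes carry Siglece and Cd33, and of 11 monocyte markers 5 were higher and 4 lower, led by Lyz2 (3.85 ± 0.18), F13a1 (5.20 ± 0.31) and Fn1 (6.19 ± 0.42), and their sum was 30947 to 35911 CPM after TBI and 3402 to 3834 CPM in untreated cells. Siglece thus amounted to 0.114% to 0.149% of the monocyte sum after TBI and 0.550% to 0.635% in untreated cells, and Cd33 to 0.120% to 0.160% after TBI and 1.42% to 1.46% in untreated cells. Of 10 tested neutrophil markers 2 were higher (Mmp9 and Retnlg) and 1, Mpo, was lower, with sums of 429 to 749 CPM after TBI and 41.2 to 426 CPM in untreated cells. Of 12 T-cell markers 2 were higher and 6 lower, and those with the smallest p were Cd8a (-2.54 ± 0.23), Cd8b1 and Satb1, all lower. The higher ones were Cd2 (0.91 ± 0.15) and Cd3g (0.57 ± 0.17), while Cd3d, Cd3e, Lck and Lat were not called. The lower monocyte markers numbered 2 without untreated replicate 1 or untreated replicate 2, and Mpo had 0 counts in every TBI library and 67 and 872 counts in the untreated ones. The higher neutrophil markers numbered 1 without untreated replicate 1 and 4 without untreated replicate 2, and the higher T-cell markers 1 without untreated replicate 1 or TBI replicate 3 and 0 without untreated replicate 2. The part of these cells in the levels of the Siglec genes was not tested.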

How the data were processed

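RNA of sorted thymic dendritic cells was sequenced from SMART-Seq v4 libraries, per the labels' protocols. The submitters' processing notes name STAR 2.5.2a, the build mm10 and featureCounts 1.6.0 of Subread. The authors deposited raw counts, 1 whole number per gene symbol and library. The annotation, strand setting and treatment of multiply mapped reads are not given in the sources used here. A treatment note names another day, but titles and treatment labels all say day 4. No column belonged to other samples (0 found). PCR without molecular identifiers means that counting error is only part of the error.

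Differences were fitted in R 4.3.3 by edgeR 4.0.16 (TMM, filterByExpr with minimum count 10 and total 15, quasi-likelihood F-test, group as the only term). Library totals included all genes. Standard errors were derived from the F statistic and the fitted coefficient. Median log2 fold changes of lists stand beside that of all genes, and no list was tested. Alternatives were other scalings, filters, DESeq2 1.42.0, limma-voom (limma 3.58.1), robust shrinkage, a replicate block, each library left out in turn and, added after the data were seen, removal of a trend with exon length (96.4% of tested genes had a length). Exon lengths came from GENCODE M21. The functions were tested on simulated data. Figures were drawn with matplotlib 3.10.9.

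The 6 genes and the lists were chosen with earlier results of these data known. Named were all 6 genes, up to 3 genes per list with the smallest p among those called (the 2 most abundant where none was called, all genes of lists of 4 or fewer), and the 3 nearest genes per Siglec with a mean log2 CPM (prior count 2) of at least 4. Named outside this rule, for their role or after their values were seen, were Ptpn11, Inpp5d, St6gal1, Neu3, Siae, Cd24a, Epx, Prg3 and the neighbours on chromosome 7. The higher conventional dendritic cell markers Mgl2, Clec10a and Cd209a were also named after their values were seen. So were the T-cell markers Cd2, Cd3g, Cd3d, Cd3e, Lck and Lat. 1 gene that the rule names is not reported here.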

Additional observations from a re-analysis of the deposited data

How the results depend on the processing

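Siglec1, Siglech, Siglecg and Cd33 kept their direction and their side of the threshold under all 15 alternatives run for each, with log2 fold changes of 3.14 to 4.07, -5.30 to -4.32, -0.61 to -0.22 and -0.42 to -0.01, and adjusted p of at most 0.0163 for Siglec1 and 0.00359 for Siglech. Siglece lost its call when either untreated library was left out, with log2 fold changes of 0.96 to 1.07 over the left-out libraries and adjusted p up to 0.0952, so the higher genes numbered 1 to 2. Siglecf, not called in the main test, was called with upper quartile scaling (-0.67), library size alone (-0.84), DESeq2 (-0.63), the replicate block (-0.79) and the length trend removed (-0.72), and ran from -0.78 to -0.50 with a library left out. The lower genes then numbered 2 in each of these settings and 1 to 2 with a library left out. The cause was not tested. Library size alone moved the median of all genes by -0.23, called 2129 genes lower and put 36.8% of calls on the higher side, against 57.6% with TMM. With a library left out, 810 to 2148 genes were higher and 423 to 1780 lower over all genes. Where 1 untreated library is dropped, the spread of the remaining one is taken from the TBI group. By the longest transcript Siglech held 90.4% of the untreated family sum and Siglece 2.24%, and Siglech stood above Siglece in TBI replicate 3 (29.5% against 27.2%). With no division by length they held 86.7% and 1.72%, and Siglece held 17.9% after TBI, no longer the largest share. No pairing by replicate number was seen: deviations of same-numbered libraries correlated at -0.02 and -0.01 over 12046 genes. The deviations of 2 untreated libraries mirror each other, so this cannot show that the libraries were unpaired. The block rests on numbers alone. It put Siglech at -5.30 and changed no Siglec call but that of Siglecf, with Siglecg and Cd33 both at -0.26. Of 510 list counts under the alternatives, 457 were within 1.5 times the main count. Siglec1 rests on 55 and 28 counts in untreated cells, the lowest of the 6 genes.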
